A study of Mus musculus with 2 samples.

Results

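The insulin-like growth factor family was read out in the cochlea, the spiral organ of hearing, of C57BL/6 mice at postnatal day 20, as the transcripts of 9 genes among 27998. They were chosen by symbol: the ligands Igf1 and Igf2, the receptor Igf1r, and the binding proteins Igfbp2, Igfbp3, Igfbp4, Igfbp5, Igfbp6 and Igfbp7. The study was a survey of gene expression by droplet single-cell RNA sequencing, in which each captured cell carries a barcode and each captured transcript a unique molecular identifier (UMI). It holds 1 group of 2 libraries, made from the cochleae of 5 to 8 wild type mice dissociated with trypsin, with no treatment or mutant arm. The comparisons here are therefore between kinds of cells. The labels do not say whether the libraries came from separate pools of mice. The p-values measure how differences between classes vary between the 2 libraries, pooled over classes, and this variation may be technical.

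Igf1 and Igf2 are secreted peptides that act mainly through Igf1r, a receptor tyrosine kinase that signals through insulin receptor substrates, PI3 kinase and Akt. The binding proteins hold the ligands outside the cell and either restrain them or carry and concentrate them near the receptor. In the ear the family is best known through Igf1, since mice and people who lack it lose hearing. What a cell transcribes says which cells could supply each protein, not where the protein goes.

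Library 1 gave 1329 cells and library 2 gave 640 cells, with medians of 10601 and 6115.5 UMIs per cell, and 2 barcodes occurred in both. Cells fell into 22 clusters, which were merged and named only where fixed markers allowed it, giving 19 classes. At least 10 cells in each library were found in 10 classes, which entered the tests. The makeup of the libraries differed: erythroid-like cells were 30.9% of the cells of library 1 and 6.09% of library 2, while connective tissue fibroblast-like cells were 11.3% and 25.6%. Hemoglobin transcripts filled a median of 88.6% and 92.2% of the UMIs of erythroid-like cells, which here serve as the measure of free RNA, since red cell precursors are not a source of these growth factors. Levels are counts scaled to a common total (CPM), adjusted by edgeR's TMM factors for the fitted classes, and each value is a sum over the cells of a class in 1 library. Levels are compared between classes within a gene, not between genes.

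The classes that matter below were identified as follows. Connective tissue fibroblast-like cells (150 and 164 cells) carried Dcn, Col3a1, Pdgfra and Apod. Cochlear fibrocyte-like cells (56 and 36 cells) carried Otos, Car3 and Kcnk2, markers of the fibrocytes of the lateral wall, which are 3 of 7 on that list, together with 3 of 7 glial markers. The name is weak: cluster 2 and cluster 16 also held 3 of 7 fibrocyte markers. The fibrocyte list summed to 7666 and 5837 CPM in fibrocyte-like cells, against 27963 and 17444 CPM in cluster 16, 17777 and 10576 CPM in cluster 18 and 13785 and 10767 CPM in cluster 2. The fibroblast list summed to 8709 and 13699 CPM in fibrocyte-like cells, against 18131 and 18051 CPM in fibroblast-like cells. Cluster 2, cluster 16 and cluster 18 stayed unnamed: cluster 2 (158 and 69 cells) was led by Nov, Fn1 and Hpgds, cluster 16 (64 and 82 cells) by Lox, Rarres1 and Apold1, and cluster 18 (40 and 126 cells) by Tnfaip6, Sptssb and Emcn. Cluster 3 (66 and 17 cells), also unnamed, was led by the matrix genes Col2a1 and Bgn and by Dmp1. It held 3 of 8 markers of pericytes or smooth muscle (Pdgfrb, Kcnj8 and Abcc9) and 3 of 9 of connective tissue fibroblasts. Cluster 11 and cluster 20 also stayed unnamed. Cluster 11 (35 and 37 cells) was led by Ucma, Frzb and Lect1 and held 6 of 12 markers of non-sensory epithelium. Cluster 20 (16 and 13 cells) was led by Rnase1, Dkk2 and Cndp2. It held 4 of 6 markers of the marginal cells of the stria vascularis, without Kcne1 and Esrrb. It also held 7 of 12 markers of non-sensory epithelium, and Lrp2 is on both lists. Stromal is used below for the 6 fitted classes that are neither blood cells nor these 2 clusters: fibroblast-like, fibrocyte-like, cluster 2, cluster 3, cluster 16 and cluster 18. Markers of non-sensory epithelium summed to 14450 and 6366 CPM in cluster 11 and to 3742 and 4337 CPM in cluster 20, against 349 and 1005 CPM in fibrocyte-like cells and at most 127 CPM in the other stromal classes.

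**Figure D1:**
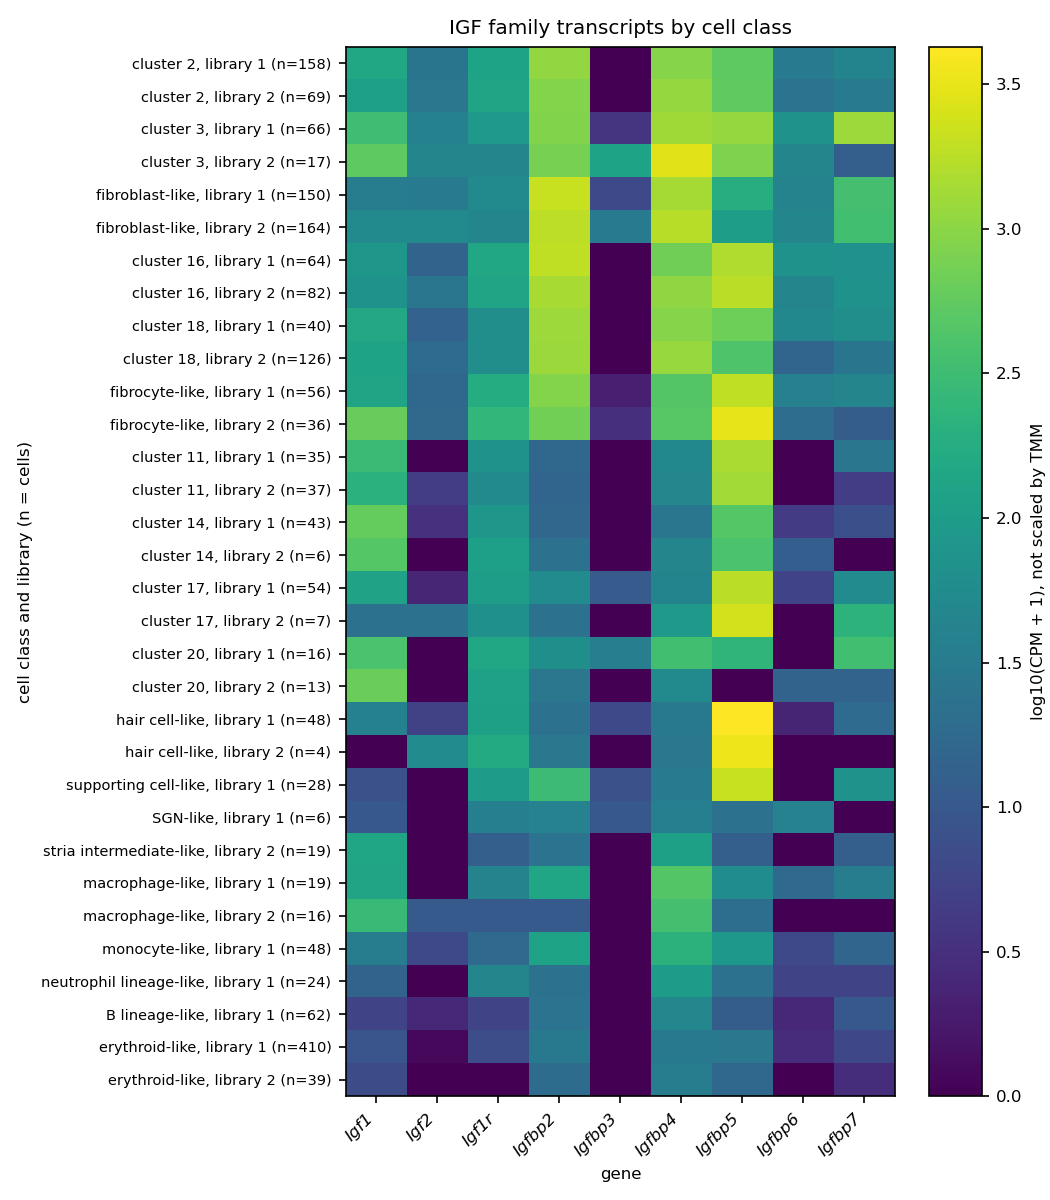
Level of each gene, as log10(CPM + 1) without TMM scaling, in every class and library with at least 4 cells (n is the number of cells). Igfbp2 was high over the stromal rows and low in cluster 11 and cluster 20, Igfbp4 in cluster 20 of library 1 (339 CPM) came almost wholly from 1 cell, and Igfbp5 was high in hair cell-like cells (4260 and 3443 CPM) and low in fibroblast-like cells (183 and 107 CPM).

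All 9 genes passed the filter on low counts. The log2 level of a class was set against the average over the other 9, each class counting the same, which gives 90 pairs of gene and class. Of these, 31 were higher and 17 lower at an adjusted p under 0.05, against a background over all genes tested of 15.7% higher and 6.62% lower. Fibroblast-like cells were the class in which every one of the 9 genes was called in the main fit, 6 higher (background 14.2%) and 3 lower (background 3.62%). Of these calls, those of Igf1r, Igfbp3, Igf1 and Igfbp5 were lost under 5, 4, 2 and 1 alternative settings, and Igfbp3 passed the count filter through few sums. Cluster 16 had 6 higher (background 18.3%) and 0 lower (background 5.65%), and cluster 3 had 6 higher (background 9.58%) and 0 lower (background 1.32%). Cluster 2 had 5 higher (background 20.3%) and 0 lower (background 7.25%), and cluster 18 had 2 higher (background 10%) and 0 lower (background 1.92%). Fibrocyte-like cells had 4 higher (background 18.7%) and 0 lower (background 6.62%). In cluster 11, 1 gene was higher (background 17.1%) and 3 were lower (background 7.73%), and in cluster 20, 1 was higher (background 11.4%) and 3 lower (background 6.01%). Macrophage-like cells had 0 higher (background 11.2%) and 3 lower (background 7.63%), and erythroid-like cells 0 higher (background 26.3%) and 5 lower (background 18.4%).

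The promoter windows of 3 binding proteins are shown because their genes had different distributions over the classes. Igfbp2 and Igfbp5 are neighbours on mouse chromosome 1 of GRCm38 (mm10), with ends 5457 bases apart on opposite strands, whereas Igfbp4 is on chromosome 11. Among the fitted classes Igfbp2 had its highest mean level in fibroblast-like cells and Igfbp5 in fibrocyte-like cells. Cluster 16 came second by mean for both genes and overlapped the leading class each time. Across the 20 sums of class and library, Igfbp2 correlated with Igfbp4 at r = 0.85 and with Igfbp5 at r = 0.46 (Pearson, log2 CPM, given as a description, since sums share libraries and depths). Windows of 250 bases before to 50 after the RefSeq start (GRCm38.p6) were found for 9 of 9 genes, and capitals mark GC boxes (GGGCGG, either strand) and TATA boxes (TATAAA, either strand). The first Igfbp2 window lies at chr1:72824230-72824529 on the plus strand, the Igfbp4 window at chr11:99040994-99041293 on the plus strand and the Igfbp5 window at chr1:72874816-72875115 on the minus strand.
Igfbp2: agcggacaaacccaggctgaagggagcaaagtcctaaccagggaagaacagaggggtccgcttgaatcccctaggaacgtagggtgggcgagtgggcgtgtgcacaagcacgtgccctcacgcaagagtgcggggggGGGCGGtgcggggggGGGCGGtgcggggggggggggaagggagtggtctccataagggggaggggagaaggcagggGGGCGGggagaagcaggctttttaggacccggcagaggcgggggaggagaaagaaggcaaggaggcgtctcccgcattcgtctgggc
Igfbp4: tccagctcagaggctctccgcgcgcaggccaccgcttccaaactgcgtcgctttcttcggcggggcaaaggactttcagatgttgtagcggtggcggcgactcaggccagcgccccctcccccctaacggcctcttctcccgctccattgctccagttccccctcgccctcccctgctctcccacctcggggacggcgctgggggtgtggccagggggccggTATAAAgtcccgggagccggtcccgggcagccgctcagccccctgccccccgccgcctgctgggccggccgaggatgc
Igfbp5: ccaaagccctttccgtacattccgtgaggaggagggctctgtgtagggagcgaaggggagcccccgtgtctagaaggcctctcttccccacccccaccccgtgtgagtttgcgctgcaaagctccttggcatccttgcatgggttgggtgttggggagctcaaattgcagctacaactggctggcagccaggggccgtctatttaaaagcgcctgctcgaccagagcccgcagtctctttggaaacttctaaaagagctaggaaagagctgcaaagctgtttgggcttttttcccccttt
The Igfbp2 window holds 3 GC boxes, a motif found in 35.66% of 32851 promoter windows. The Igfbp4 window holds 1 TATA box, found in 13.62% of windows, and the Igfbp5 window holds neither motif. These are matches of letters and say nothing of which factor binds.

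Igf1 is the ligand through which growth hormone acts in many tissues. Among the classes of the main fit it had its highest mean levels in cluster 20 and cluster 3. It was low in fibroblast-like cells. Cluster 14, described below, was too small for the main fit. With at least 4 cells per class and library, its mean Igf1 level was higher, at 489 CPM. Cluster 20 then had a mean of 387 CPM and cluster 3 of 385 CPM. In the main fit the Igf1 level in cluster 20 was 317 CPM in library 1 and 425 CPM in library 2. It was 289 and 405 CPM in cluster 3, and 273 and 175 CPM in cluster 11. Macrophage-like cells had 117 and 244 CPM, cluster 18 had 147 and 116 CPM, cluster 2 had 127 and 96.2 CPM and cluster 16 had 72.2 and 64.3 CPM. Fibroblast-like cells had 27.3 and 45.1 CPM and erythroid-like cells 33.0 and 34.7 CPM on this scale, which TMM factors of 0.248 and 0.173 raise for erythroid-like cells. Unscaled, fibroblast-like cells had 32.0 and 51.6 CPM against 8.12 and 6.00 CPM in erythroid-like cells. After thinning to 2000 UMIs per cell 9.33% and 7.32% of fibroblast-like cells had an Igf1 UMI, against 1.71% and 0 of 39 erythroid-like cells. Both gaps include the dilution by hemoglobin, so they cannot show whether Igf1 in fibroblast-like cells lies above free RNA. With fibrocyte-like cells (107 and 515 CPM) between cluster 3 and cluster 11 by mean, the first 7 classes overlapped their neighbours, and a gap in both libraries opened below cluster 2 and again below cluster 16.

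Against the other classes Igf1 was higher in cluster 20 (log2 fold change 1.61, SE 0.48, edgeR adjusted p = 0.0430) and lower in fibroblast-like cells (-2.13 on the log2 scale, SE 0.54, edgeR adjusted p = 0.0198), a call lost under 2 alternatives (adjusted p up to 0.146). Cluster 3 (1.48, adjusted p = 0.0594), fibrocyte-like cells (1.20, adjusted p = 0.0563) and cluster 11 (0.88, adjusted p = 0.197) missed the threshold in edgeR. For cluster 20 the adjusted p was 0.121 with stricter cell filters, 0.0784 at a Leiden resolution of 0.5 and 0.123 without the erythroid-like class. By cells, 87.5% and 84.6% of cluster 20 had at least 1 Igf1 UMI, against 8.78% and 7.69% of erythroid-like cells. Medians were 5817.5 and 5894 UMIs against 10689 and 12729, the latter mostly hemoglobin. Thinned to 2000 UMIs per cell, 56.2% and 53.8% of cluster 20 had an Igf1 UMI, against 1.71% of erythroid-like cells in library 1 and 0 of 39 in library 2, which allows a share of up to 7.69%.

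Cluster 14, led by Fabp7, Fzd9 and Hey1 and with 7 of 12 markers of non-sensory epithelium, had too few cells in library 2 (43 and 6) for the main comparison. Its unscaled Igf1 level was 599 CPM in library 1 (95% Poisson interval 550 to 652) and 467 CPM in library 2 (336 to 631), and 42 of its 43 cells in library 1 had an Igf1 UMI. With at least 4 cells per class and library, 13 classes could be fitted, and Igf1 was then higher in cluster 14 (log2 fold change 2.07, SE 0.38, edgeR adjusted p = 0.000442; background 15.2%). In the same fit Igfbp2 and Igfbp4 were lower in cluster 14 (-3.89 and -3.36; background 5.53%). Hair cell-like cells, with 38.9 CPM of Igf1 in library 1 (26.1 to 55.9) and 0 UMIs in 4 cells in library 2, were lower for Igf1 (-2.36, edgeR adjusted p = 0.0112; background 13.7%). Supporting cell-like cells, found in library 1 only, had 3 Igf1 UMIs in 28 cells.

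Among fibrocyte-like cells the Igf1 level was 107 CPM in library 1 and 515 CPM in library 2, and a few cells held most of the second value. In library 2, 9 of the 36 cells, and in library 1, 2 of 56, had more UMIs of stria marginal markers than of fibrocyte markers. The 9 cells carried 211 of the 285 Igf1 UMIs of the class in library 2, an unscaled level of 3431 CPM, with an Igf1 UMI in 9 of 9. The same 9 cells had 3073 CPM of Kcne1, a potassium channel subunit of marginal cells, and 6162 CPM of Slc12a2, their chloride cotransporter, with 0 UMIs of Igfbp5 and of Car3. The remaining fibrocyte-like cells had 180 CPM of Igf1 in library 2 and 136 CPM in library 1, on the same unscaled scale. Without the 11 cells, a choice made after the values were seen, the log2 fold change of Igf1 in fibrocyte-like cells against the other classes was 0.10 (edgeR adjusted p = 0.829). Cluster 3 then passed at 1.58 (edgeR adjusted p = 3.92e-10) and cluster 11 at 1.00 (edgeR adjusted p = 3.08e-05), from 1.48 and 0.88 in the main fit. The cells of cluster 3 and cluster 11 were the same in both fits. All classes share 1 estimate of the spread of Igf1, which in the main fit includes the 11 cells. The smaller p-values are therefore not new evidence from cluster 3 or cluster 11. The mitochondrial shares of the 11 cells and their place in the tissue were not examined.

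**Figure D2:**
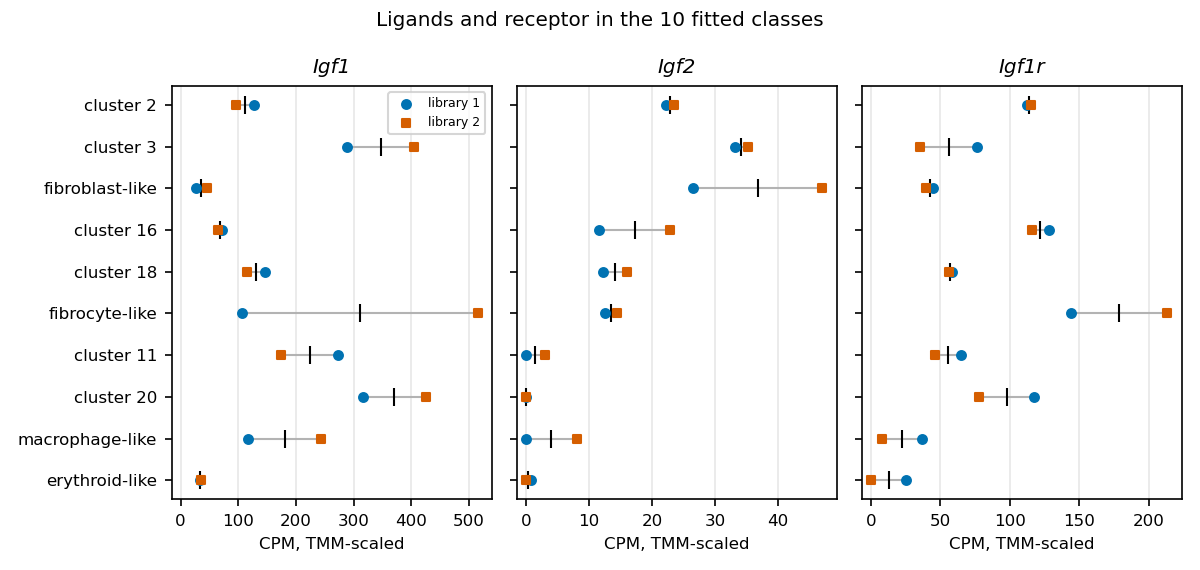
TMM-scaled CPM of Igf1, Igf2 and Igf1r in the 10 fitted classes, with circles for library 1, squares for library 2 and a tick at the mean of the 2 libraries. Fibrocyte-like cells have the widest gap between libraries for Igf1 (107 and 515 CPM), and Igf2 is near 0 in cluster 11, cluster 20 and erythroid-like cells.

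Igf2, the imprinted ligand that dominates fetal growth, was sparse and was seen mainly in the stromal classes. Over all cells it had 207 UMIs in library 1 and 159 in library 2. Fibroblast-like cells had 26.6 and 46.9 CPM, cluster 3 had 33.1 and 35.2 CPM, and cluster 2 had 22.2 and 23.5 CPM. Cluster 16 had 11.7 and 22.8 CPM, cluster 18 had 12.2 and 16 CPM, and fibrocyte-like cells had 12.6 and 14.5 CPM. In cluster 20 no Igf2 UMI was seen in either library, which allows up to 14.8 and 39.9 CPM unscaled, and cluster 11 had 0 and 1 UMIs. Macrophage-like cells had 0 and 1 UMIs, and 0 in library 1 allows up to 24.3 CPM unscaled. The 6 stromal classes overlapped one another in part, and these limits do not separate cluster 20 or macrophage-like cells from the lower stromal classes. Igf2 was higher in cluster 3 (log2 fold change 2.88, SE 0.49, edgeR adjusted p = 4.28e-06), fibroblast-like cells (2.81, SE 0.38, edgeR adjusted p = 4.99e-09), cluster 2 (2.13, SE 0.38, edgeR adjusted p = 4.94e-06) and cluster 16 (1.58, SE 0.46, edgeR adjusted p = 0.00655). Because whole classes had 0 or 1 UMIs, these fold changes depend on the fit's handling of zeros and are not bounds. Few single cells had a UMI: 17.3% and 23.8% of fibroblast-like cells had a UMI, against 0.244% of erythroid-like cells in library 1. Medians were 5556.5 and 5568 UMIs against 10689, the latter mostly hemoglobin.

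Igf1r, the receptor for both ligands, was highest in fibrocyte-like cells. Fibrocyte-like cells had 144 and 213 CPM, cluster 16 had 128 and 116 CPM, cluster 2 had 112 and 116 CPM and cluster 20 had 117 and 78.1 CPM. Cluster 18 (58.0 and 56.0 CPM), cluster 3 (76.4 and 35.2 CPM) and cluster 11 (64.6 and 46.0 CPM) overlapped. Fibroblast-like cells had 44.8 and 39.7 CPM, macrophage-like cells 36.6 and 8.13 CPM (the latter 1 UMI) and erythroid-like cells 25.4 CPM and 0 UMIs. Fibrocyte-like cells stood above every other fitted class in both libraries. Fibroblast-like cells lay below the classes other than blood cells in library 1 and above cluster 3 in library 2. In library 2, 5 of the 36 fibrocyte-like cells held 76 of their 118 Igf1r UMIs. With stricter cell filters the fibrocyte-like share of all Igf1r UMIs went from 11.3% and 18.4% to 6.89% and 4.95%. Fibrocyte-like cells with an Igf1r UMI went from 71.4% and 61.1% to 71.1% and 38.9%. The higher call below was kept in every alternative with a test.

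Igf1r was higher in fibrocyte-like cells (a log2 fold of 1.61, SE 0.19, edgeR adjusted p = 7.11e-11), cluster 16 (1.03, SE 0.19, edgeR adjusted p = 6.16e-06) and cluster 2 (0.92, SE 0.18, edgeR adjusted p = 3.33e-05). It was lower in erythroid-like and macrophage-like cells, and in fibroblast-like cells by a margin (-0.67, edgeR adjusted p = 0.0357) that missed the threshold under 5 of the alternatives, where adjusted p reached 0.361. Hair cell-like cells had 114 CPM unscaled in library 1 (91.1 to 141) and 167 CPM in library 2 (61.1 to 363), supporting cell-like cells 101 CPM (72.8 to 136), and spiral ganglion neuron-like cells 35.6 CPM from 8 UMIs in 6 cells. In the fit with at least 4 cells, Igf1r in hair cell-like cells did not pass (0.37, edgeR adjusted p = 0.316).

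Igfbp2, a binding protein abundant in fetal tissues, was high in all 6 stromal classes and low in the other 4. Fibroblast-like cells had 1827 and 1600 CPM, cluster 16 had 1706 and 1270 CPM, cluster 18 had 1155 and 1109.5 CPM and cluster 2 had 971 and 800 CPM. Cluster 3 had 772 and 582 CPM and fibrocyte-like cells 729 and 620 CPM. The level was 14.6 and 12.3 CPM in cluster 11 and 50.8 and 17.4 CPM in cluster 20. No overlap was seen between the 6 stromal classes and the other 4 in either library. All 6 were called higher, from 1.36 in cluster 3 (SE 0.23, edgeR adjusted p = 2.88e-06) to 2.86 in fibroblast-like cells (SE 0.19, edgeR adjusted p = 4.16e-22), and cluster 11 (-4.92, SE 0.42, edgeR adjusted p = 3.86e-17), cluster 20, macrophage-like and erythroid-like cells were lower. Thinned to 2000 UMIs, hemoglobin included, 98.7% and 96.3% of fibroblast-like cells had an Igfbp2 UMI, against 4.39% and 5.13% of erythroid-like cells. Supporting cell-like cells had 304 CPM unscaled in library 1 (254 to 361), where hair cell-like cells had 21.5 CPM (12.3 to 34.9).

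Igfbp4, which restrains ligands until the protease pappalysin cleaves it, was also high in stromal classes, with fibrocyte-like cells the lowest of them. Cluster 3 had 1132 and 2229 CPM, fibroblast-like cells 1167 and 1534 CPM, cluster 18 had 861 and 1098 CPM, cluster 2 had 836 and 1004 CPM and cluster 16 had 620 and 943 CPM. In library 2, 1 of the 17 cells of cluster 3 held 84 of its 253 Igfbp4 UMIs. Fibrocyte-like cells, with 368 and 410 CPM, overlapped macrophage-like cells, with 417 and 301 CPM. Cluster 11 had 43.7 and 39.9 CPM. Cluster 20 had 270 and 34.7 CPM, and 1 cell held 68 of its 69 UMIs in library 1. Igfbp4 was higher in cluster 3 (log2 fold change 2.12, SE 0.25, edgeR adjusted p = 5.44e-07), fibroblast-like cells (1.82, SE 0.24, edgeR adjusted p = 1.86e-06), cluster 18 (1.31), cluster 2 (1.21) and cluster 16 (0.93, edgeR adjusted p = 0.00969). Cluster 11 (-3.71), erythroid-like cells (-1.84) and cluster 20 (-1.39, edgeR adjusted p = 0.00901) were lower, and the call in cluster 20 was lost with DESeq2 size factors and with at least 4 cells per class (adjusted p up to 0.408). The call in cluster 16 was lost in DESeq2 and without the erythroid-like class, with adjusted p up to 0.119. Among macrophage-like cells, 52.6% and 25% had an Igfbp4 UMI after thinning, against 5.85% and 5.13% of erythroid-like cells, whose share hemoglobin lowers.

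**Figure D3:**
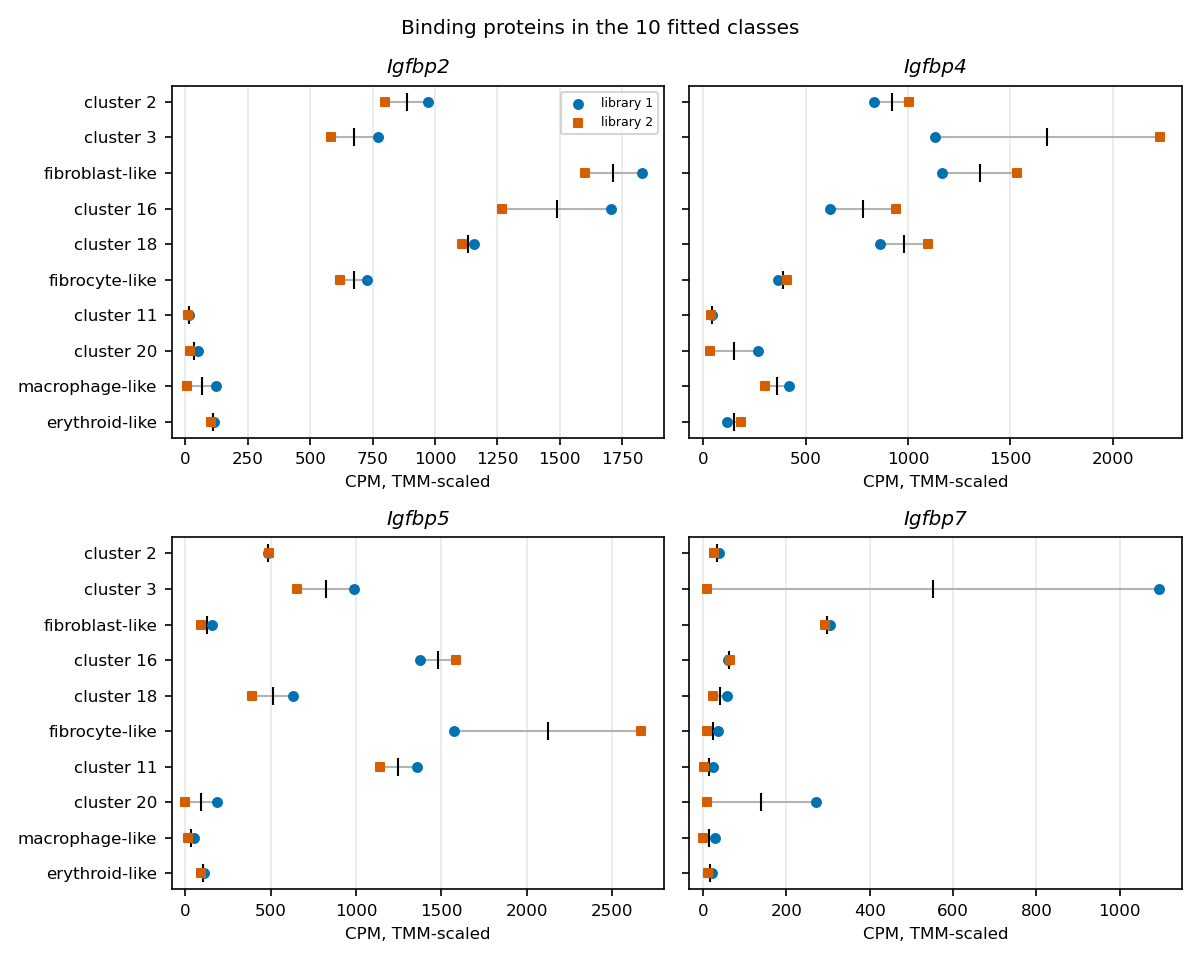
TMM-scaled CPM of Igfbp2, Igfbp4, Igfbp5 and Igfbp7 in the 10 fitted classes, with circles for library 1, squares for library 2 and a tick at the mean. Fibroblast-like cells are high for Igfbp2 and low for Igfbp5, and cluster 3 has 1095 CPM of Igfbp7 in library 1 and 8.81 CPM in library 2.

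Igfbp5, a binding protein that also attaches to extracellular matrix, was low in fibroblast-like cells and high in fibrocyte-like and hair cell-like cells. Fibrocyte-like cells had 1577 and 2674 CPM, cluster 16 had 1377 and 1590 CPM and cluster 11 had 1356 and 1141 CPM. Cluster 3 followed at 991 and 652 CPM, cluster 18 at 632 and 391 CPM and cluster 2 at 484 and 489 CPM. Fibroblast-like cells had 156 and 93.9 CPM and erythroid-like cells 112 and 92.6 CPM on the TMM scale. Unscaled, the levels were 183 and 107 CPM in fibroblast-like cells against 27.5 and 15.99 CPM in erythroid-like cells. After thinning, 28% and 15.9% of fibroblast-like cells had an Igfbp5 UMI, against 5.85% and 2.56% of erythroid-like cells. These gaps, too, include the dilution by hemoglobin and cannot show whether fibroblast-like cells lie above free RNA. In fibrocyte-like cells of library 2, 1 cell held 477 of the 1479 Igfbp5 UMIs.

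Higher calls for Igfbp5 fell on fibrocyte-like cells (a log2 fold of 2.89, SE 0.31, edgeR adjusted p = 5.70e-06), cluster 16 (2.29, SE 0.32, edgeR adjusted p = 8.46e-05), cluster 11 (1.98, SE 0.33, edgeR adjusted p = 0.000399) and cluster 3 (1.31, SE 0.37, edgeR adjusted p = 0.0331). Lower calls fell on fibroblast-like cells (-1.72, SE 0.45, edgeR adjusted p = 0.0144), cluster 20, macrophage-like and erythroid-like cells. The call in cluster 3 was lost under 3 alternatives (adjusted p up to 0.164), and that in fibroblast-like cells at a Leiden resolution of 0.5 (adjusted p = 0.0515). The call in cluster 20 was lost with DESeq2 size factors and at a Leiden resolution of 0.5 (adjusted p up to 0.0707). Cluster 20 had 48 UMIs in library 1, 44 of them in 1 cell, and 0 in library 2.

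Hair cell-like cells, recognised by 10 of 12 markers including Myo7a, Pou4f3 and Otof, had an unscaled Igfbp5 level of 4260 CPM in library 1 (4113 to 4411, 48 cells) and 3443 CPM in library 2 (2863 to 4105, 4 cells). Fibrocyte-like cells had 1943 CPM (1853 to 2036) and 3137 CPM (2979 to 3301). Unscaled, hair cell-like cells stood higher in library 1 and the intervals overlapped in library 2. Fibrocyte-like cells of library 2 without the 9 richer in marginal markers had 3607 CPM. TMM factors in the fit with at least 4 cells were 1.18 and 2.06 in hair cell-like cells and 1.15 and 1.11 in fibrocyte-like cells. Scaled by them, hair cell-like cells lay above fibrocyte-like cells in library 1 and below them in library 2. Supporting cell-like cells had 2125 CPM in library 1 (1989 to 2268). Cluster 17 (54 and 7 cells), led by Otol1, Lfng and Epcam, had 1791 CPM (1693 to 1894) and 2410 CPM (1981 to 2905). In library 2, 1 of the 7 cells of cluster 17 held 70 of its 110 Igfbp5 UMIs, and the TMM factor of cluster 17 was 1.70. After thinning, 83.3% of hair cell-like cells in library 1 had an Igfbp5 UMI, against 5.85% of erythroid-like cells, whose share hemoglobin lowers. With at least 4 cells per class, Igfbp5 was higher in hair cell-like cells (log2 fold change 2.57, SE 0.22, edgeR adjusted p = 1.62e-20; background 20.4%) and in cluster 17 (1.70, SE 0.24, edgeR adjusted p = 3.66e-09; background 13%). Igfbp2 and Igfbp4 were both lower in each (background 13.7% for hair cell-like cells and 4.76% for cluster 17), from -2.30 for Igfbp2 in cluster 17 to -3.65 for Igfbp4 in hair cell-like cells. Median mitochondrial shares were 9.80% and 12.3% in hair cell-like cells and 8.65% and 10.01% in fibrocyte-like cells, against 3.04% and 3.22% in fibroblast-like cells, and their part in these levels was not tested.

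Igfbp7, which binds the ligands weakly, had a steady source and a source seen in 1 library. Fibroblast-like cells had 304 and 292 CPM, and 72% and 76.2% of them had a UMI. Cluster 3 had 1095 CPM in library 1 and 8.81 CPM in library 2, from 960 UMIs in 66 cells and 1 UMI in 17 cells. In cluster 20, 269.8 and 8.68 CPM rested on a single cell: it held 69 of the 69 UMIs of library 1, with 68 of 69 Igfbp4 UMIs and all 7 Igfbp3 UMIs. All other fitted classes were at or below 65.0 CPM in both libraries.

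Igfbp7 was higher in fibroblast-like cells (log2 fold change 2.96, SE 0.59, edgeR adjusted p = 0.00538), in both libraries. Its call in cluster 3 (3.71, SE 0.59, edgeR adjusted p = 0.00220) came from library 1, and within library 2 cluster 3 was lower than the mean of the others by 0.76 on the log2 scale. The cells of cluster 3 differed between libraries in other ways as well: summed markers of osteoblasts, the bone-forming cells, were 346 CPM in library 1 and 16606 CPM in library 2, and chondrocyte markers 2217 and 630 CPM. Markers of pericytes or smooth muscle summed to 804 and 825 CPM. In library 1, 23 of the 66 cells had at least 10 Igfbp7 UMIs, and in library 2, 0 of 17. Of 9 endothelial markers, which summed to 1173 CPM in library 1 and 1832 CPM in library 2, 3 were at 0 in library 1 (Tie1, Cldn5 and Esam) and 7 in library 2. The part of this makeup in the Igfbp7 level was not tested.

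Igfbp6, which prefers Igf2, was low and was seen mainly in the stromal classes. Cluster 16 had 62.6 and 39.4 CPM, cluster 3 had 61.6 and 35.2 CPM, fibroblast-like cells 34.9 and 39.7 CPM, and cluster 2 had 27.8 and 20.4 CPM. Cluster 11 had 0 UMIs in both libraries, which allows up to 6.90 and 10.9 CPM unscaled. Higher calls were made in cluster 16 (log2 fold change 2.47, SE 0.31, edgeR adjusted p = 2.74e-10), cluster 3 (2.46, SE 0.40, edgeR adjusted p = 1.35e-06), fibroblast-like cells (1.99, SE 0.36, edgeR adjusted p = 6.80e-06) and cluster 2 (1.27, SE 0.36, edgeR adjusted p = 0.00473), the last lost at a Leiden resolution of 2.0 (adjusted p = 0.145). The call in fibrocyte-like cells (1.27, edgeR adjusted p = 0.0223) rested on few cells: 1 cell held 26 of the 34 UMIs in library 1 and another 8 of 9 in library 2. Without the cells richer in marginal markers its log2 fold change was 0.11 (edgeR adjusted p = 0.833). The 26 UMIs lay in 1 of the 2 such cells of library 1, which had 13 Slc12a2 UMIs but 0 of Kcne1 and of Kcnq1. The 9 such cells of library 2, which did carry Kcne1, had 0 Igfbp6 UMIs. In spiral ganglion neuron-like cells, 9 UMIs all lay in 1 of 6 cells.

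Igfbp3, the main carrier of the ligands in blood, was rarely seen, with 32 UMIs in library 1 and 40 in library 2. In library 2, fibroblast-like cells held 28 of them (25.3 CPM) and cluster 3 held 11 (96.9 CPM), while in library 1 the same classes held 6 (4.55 CPM) and 2 (2.28 CPM). No UMI was seen in either library in 6 of the 10 fitted classes: cluster 2, cluster 11, cluster 16, cluster 18, macrophage-like and erythroid-like cells. It passed the count filter through few sums. The higher call in fibroblast-like cells (edgeR adjusted p = 0.0433) was lost under 4 alternatives, with adjusted p up to 0.708 in DESeq2.

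A direct contrast of the 2 named stromal classes set fibrocyte-like cells against fibroblast-like cells. Of the 9 genes, 7 passed, 3 higher (background 14.2%) and 4 lower (background 12.7%) in fibrocyte-like cells. Igfbp5 was higher by 4.15 on the log2 scale (SE 0.56, edgeR adjusted p = 6.22e-05), Igf1 by 2.99 (SE 0.63, edgeR adjusted p = 0.00529) and Igf1r by 2.05 (SE 0.27, edgeR adjusted p = 3.11e-09). Igfbp7 was lower (-3.86, SE 1.02, edgeR adjusted p = 0.0188), as were Igfbp4 (-1.79, SE 0.39, edgeR adjusted p = 0.000855), Igf2 (-1.37, SE 0.39, edgeR adjusted p = 0.00466) and Igfbp2 (-1.35, SE 0.30, edgeR adjusted p = 0.000204). Each of the 7 had the same direction in both libraries. Without the cells richer in marginal markers Igf1 was higher by 1.86 (edgeR adjusted p = 2.31e-07) and Igfbp6 was lower (-1.78, edgeR adjusted p = 0.000841). These p-values, too, rest on a spread estimated without those cells. Without the library as a block, Igfbp7 missed the threshold (adjusted p = 0.0779).

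**Figure D4:**
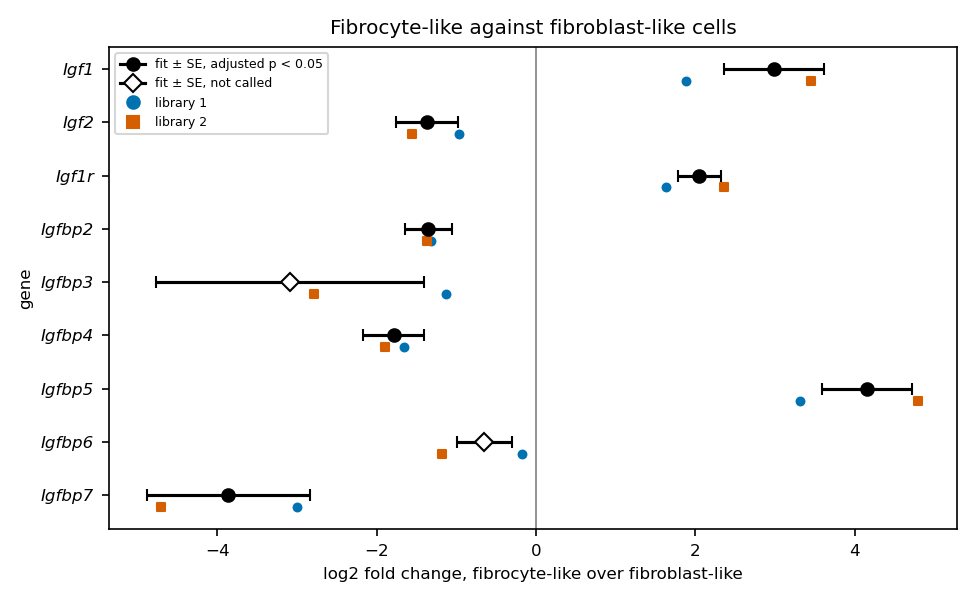
Log2 fold change of each gene in fibrocyte-like over fibroblast-like cells, with the fitted value ± SE in black (open where not called) and the difference within each library below it. Igfbp5, Igf1 and Igf1r lie right of 0 and Igfbp7, Igfbp4, Igf2 and Igfbp2 left of it in the fit and in both libraries.

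Cells of the stromal classes often carried several binding proteins at once, fibrocyte-like cells less so. Thinned to 2000 UMIs, cells of cluster 16 had a mean of 2.92 and 2.96 of the 6 binding protein genes, and fibroblast-like cells 2.71 and 2.62. Cluster 3 had 2.97 and 2.59, cluster 2 had 2.38 and 2.33 and cluster 18 had 2.35 and 2.24. Fibrocyte-like cells had 1.91 and 1.31. Outside the stromal classes, cluster 17 (1.22 and 1.57) and supporting cell-like cells (1.32, library 1 only) lay near them. The counts were lower in macrophage-like cells (0.95 and 0.38), hair cell-like cells (0.90 and 0.75) and cluster 11 (0.86 and 0.57). They were lower again in cluster 20 (0.31 and 0.15) and in erythroid-like cells (0.17 and 0.15), whose UMIs were mostly hemoglobin.

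Seen from the gene, the classes that held most of its UMIs often differed between the libraries, which also differed in cell makeup. Cluster 2, with 11.9% and 10.8% of the cells, held 41.2% and 30.1% of all Igfbp4 UMIs and 32.9% and 34.4% of all Igf1r UMIs. Cluster 16, with 4.82% and 12.8% of the cells, held 28.5% and 34.5% of the Igfbp6 UMIs. For these 3 genes the same class led in both libraries, and for the other 6 it did not. The largest shares of Igf1 lay in cluster 14 (25.8%) and cluster 2 (25.5%) in library 1, but in fibrocyte-like cells (30.4%) in library 2, where the 9 cells richer in marginal markers held 211 of 285 UMIs. With stricter cell filters (a minimum of 500 genes and a mitochondrial share capped at 10%) the fibrocyte-like share was 19.9%, and cluster 2 led in library 2 with 23.3%. Hair cell-like cells, 3.61% of the cells of library 1, held 22.2% of its Igfbp5 UMIs (21.5% to 22.9%), while in library 2 cluster 16 held 39.4%. With the same stricter filters the hair cell-like share was 11.2%, and cluster 16 led in library 1 as well, with 22.8%. Fewer cells of a kind in the suspension and less RNA per cell cannot be told apart in such shares.

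**Figure D5:**
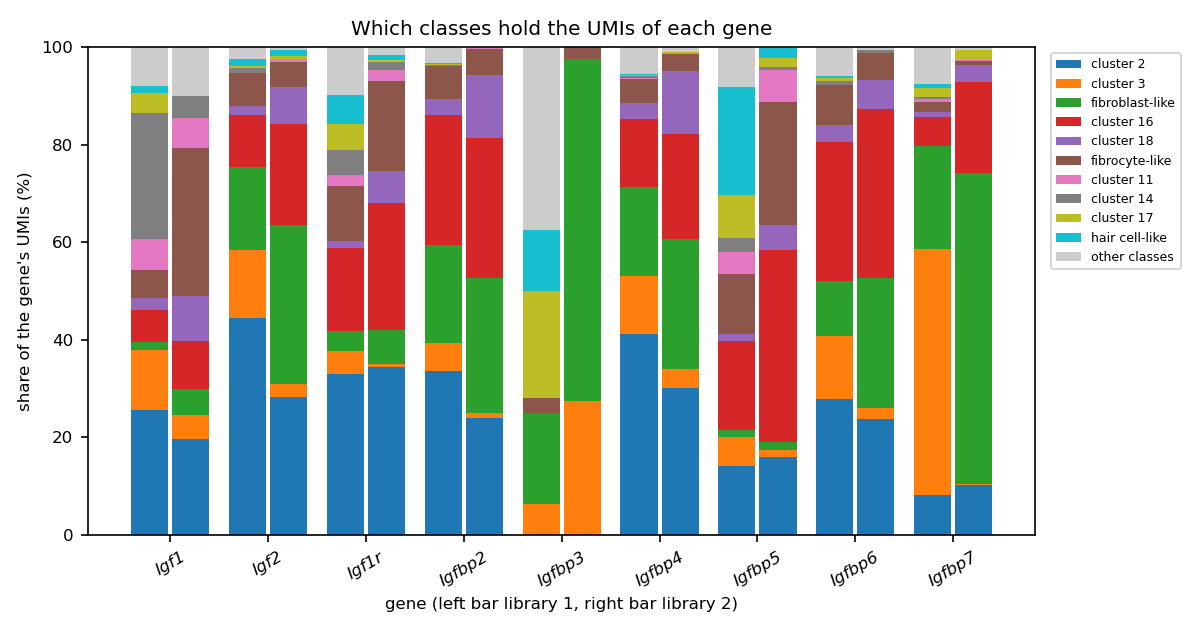
Share of each gene's UMIs held by each class, in percent, with library 1 on the left and library 2 on the right of each pair of bars. The leading class is the same in both libraries for Igf1r, Igfbp4 and Igfbp6, and Igfbp3 rests on 32 and 40 UMIs.

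The rest of the pathway was read from a list of 47 genes grouped by role, of which 36 were tested. Cluster 16 had 14 of the 36 higher (background 18.3%) and 0 lower (background 5.65%), with a median log2 fold change of 0.63 beside 0.08 for all genes tested in that class. Cluster 2 had 14 higher (background 20.3%) and 1 lower (background 7.25%), with a median of 0.49 beside 0.09. Cluster 3 had 9 higher (background 9.58%) and 0 lower (background 1.32%), with a median of 0.57 beside 0.04. Fibrocyte-like cells had 7 higher and 1 lower (0.22 beside 0.14), a share of higher calls near their background of 18.7%. Macrophage-like cells had 3 higher (background 11.2%) and 9 lower (background 7.63%), with a median of -1.24 beside -0.30. Fibroblast-like cells, where every family member was called in the main fit, had 9 higher (background 14.2%) and 1 lower (background 3.62%), with a median of -0.00 beside 0.08.

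In fibroblast-like cells the genes that passed were spread over the roles. Of the receptors, Insr and Igf2r, the receptor that clears Igf2, did not pass. Among partners and proteases, Htra1, a secreted protease that cleaves binding proteins, was higher (log2 fold change 2.39, edgeR adjusted p = 1.16e-10) and so was Mmp2, a matrix protease (2.71, edgeR adjusted p = 2.79e-20). Among 20 adaptors and kinases, 4 were higher and 1 lower, shares near the backgrounds of 14.2% and 3.62%. The 3 largest were Grb10, an imprinted adaptor that restrains the receptor (2.81, edgeR adjusted p = 3.01e-14), Irs1 (1.55, edgeR adjusted p = 0.0138) and Pik3r1, a regulatory subunit of PI3 kinase (0.82, edgeR adjusted p = 0.000986). Ghr, the growth hormone receptor, was higher (1.83, edgeR adjusted p = 6.75e-11), as were Foxo1, a transcription factor that Akt holds out of the nucleus (1.80, edgeR adjusted p = 2.22e-11), and Igf2bp3, which binds Igf2 mRNA (1.16, edgeR adjusted p = 2.24e-05).

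Igf2 and Grb10 are imprinted, and 6 of 9 imprinted genes tested were higher in fibroblast-like cells (background 14.2%) and 0 lower (background 3.62%), with a median log2 fold change of 2.00 beside 0.08 for all genes. The largest were Meg3 (4.61, edgeR adjusted p = 2.70e-08), Mest (3.23, edgeR adjusted p = 8.14e-07) and Ndn (2.99, edgeR adjusted p = 4.47e-18). In fibrocyte-like against fibroblast-like cells, 1 of the 9 was higher (background 14.2%) and 6 were lower (background 12.7%). Of 18 immediate early and heat shock genes, which can rise when tissue is dissociated, 8 were higher (background 14.2%) and 1 lower (background 3.62%) in fibroblast-like cells, led by Ier3 (1.41), Hspa1a (1.29) and Egr2 (1.20). The same list had 13 higher and 0 lower in each of cluster 2 (background 20.3% higher), cluster 16 (18.3%) and cluster 18 (10%). It had 0 higher with 12 lower in cluster 11 (background 7.73% lower) and 14 lower in cluster 20 (6.01%), the classes with the lowest mean Igfbp2 levels. In macrophage-like cells, where Igfbp2 was lower, it had 9 higher (background 11.2%) and 0 lower. In fibrocyte-like cells it had 2 higher, a share below the background of 18.7%, and 6 lower (background 6.62%). Its part in the levels was not tested.

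For each member, the held-out genes whose log2 CPM followed it best over the 20 sums were named by a fixed rule, as a description. Igfbp2 was closest to Pantr1 (Pearson r = 0.96), Mmp2 (0.95) and Sparcl1 (0.95), and Igfbp4 to Ifitm3 (0.97), Cd302 (0.94) and Pid1 (0.94). Igf2 was closest to Pou3f1 (0.94), Tnfsfm13 (0.93) and B3gnt9 (0.92), and Igf1r to Akap11 (0.94), Msi2 (0.92) and Ktn1 (0.92). Igfbp6 followed Chsy1 (0.93), Ust (0.90) and Sparcl1 (0.90), and Igfbp5 followed Usp53 (0.86), Car14 (0.86) and Zdhhc21 (0.85). For Igfbp7 the closest were Col6a1 (0.85), Col16a1 (0.84) and Gria3 (0.83), for Igfbp3 Dpep1 (0.82), Ogn (0.77) and Angptl4 (0.75), and for Igf1 Pde4dip (0.74), Hook2 (0.72) and Plce1 (0.69). The points share libraries and differ in depth, from 75175 to 4801687 UMIs per sum.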

How the data were processed

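The values analysed are raw UMI counts for each gene in each barcode, deposited by the authors, and the submitters' processing notes name Cell Ranger 2.1.0 and mm10. The deposited tables hold 1610 barcodes with 20212520 UMIs (library 1) and 720 with 7094752 (library 2), over 27998 genes. Family members and gene lists were chosen with earlier results of these data known.

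Cells needed 300 genes or more, and no more than 20% of UMIs from mitochondrial genes. These limits removed 275 and 60 barcodes, then 4 and 16, and Scrublet (expected rate 2%) removed 2 and 4 doublets. Clusters came from counts scaled to 10000, 2026 genes, 30 principal components, 15 neighbours and Leiden resolution 1.0 (scanpy 1.11.5, Python 3.11.15). Clustering used the 181 markers of 24 cell type lists and variable genes with an odd checksum of their identifier, and 13976 genes, with the 9 members and the lists, were held out of it. A cluster took a list's name when at least 3 markers and 40% of that list were higher by a log2 fold of 1, they outnumbered other lists' markers among the 10 leading genes, and the lead over the next list was 20 points or those genes held no other list's marker. This naming rule was revised after a first clustering had been seen.

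Sums over cells (10 classes in each of 2 libraries, 20 sums) were fitted in edgeR 4.0.16 (R 4.3.3) by robust quasi-likelihood with TMM factors, filterByExpr at 10 counts (10087 genes) and a library block, because classes from 1 library share a suspension and a capture. Only the 4939 genes held out of clustering were tested, Benjamini-Hochberg adjustment was made per contrast, and calls needed an adjusted p under 0.05. TMM factors were 1.08 to 1.56, but 0.248 and 0.173 in erythroid-like cells, whose scaled CPM are raised accordingly. The fit was tested on simulated data. Exact binomial and Poisson 95% intervals cover counting error only, and 0 counts were bounded by 3 counts. Shares were also taken after thinning to 2000 UMIs, hemoglobin included, which left out 0 cells. Named are the 9 members, the 3 most alike genes of each and, from the lists, the 3 largest changes past the threshold in the class with most member calls. Lists held pathway genes by role, imprinted genes, and immediate early and heat shock genes. Genome positions are on GRCm38. Alternatives were DESeq2 1.42.0 and its size factors, no count filter, no block, other cell minimums and filters, other Leiden resolutions and leaving out a library.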

Additional observations from a re-analysis of the deposited data

Results flagged for a closer look

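Barcodes removed by the cell filters entered no comparison, and UMIs of the family in them exceeded the limit that a count of 0 allows. In library 2, the 16 barcodes with over 20% mitochondrial UMIs held 141 Igf1 UMIs (1065 CPM), 19 of Igf1r, 62 of Igfbp2, 22 of Igfbp4 and 50 of Igfbp5. In library 1, the 4 barcodes with over 20% mitochondrial UMIs held 129 Igfbp5 UMIs (4541 CPM), 21 of Igfbp2 and 6 of Igfbp4. The 275 barcodes with fewer than 300 genes in library 1 held 38 Igfbp5, 18 Igfbp2, 17 Igfbp4 and 7 Igfbp7 UMIs. The 60 such barcodes of library 2 held 10 Igfbp2, 7 Igfbp4 and 4 Igfbp5 UMIs.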

How the results depend on the processing

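The 31 higher and 17 lower calls and the 7 calls of the fibrocyte-like contrast became 26 to 38, 13 to 18 and 6 to 8 over 12 alternatives, 2 of them (without the cells richer in marginal markers, without the erythroid-like class) added after the data were seen. Without a replicate block the counts were 30, 16 and 6. Leaving out a library gives values with no test, of which 30 and 31 of the higher calls, 17 and 17 of the lower and 7 and 7 of the contrast kept their direction without library 1 and without library 2. Of 1170 single values recomputed, 1093 kept direction and side of the threshold, 33 lost the threshold, 40 newly passed it and 4 reversed: Igfbp4 in fibrocyte-like cells at 4 cells per class (0.81), Igfbp6 in fibrocyte-like cells with stricter cell filters (-1.08) and at a Leiden resolution of 0.5 (-0.26), and Igfbp7 in cluster 3 without library 1 (-0.76, against 4.22 without library 2). Shares of cells with a UMI exceeded the erythroid-like share in both libraries, by intervals that did not overlap, in 41 pairs of gene and class, in 28 with stricter cell filters and in 26 after thinning. Hemoglobin UMIs counted toward depth in each of these, which lowers the erythroid-like share. The class with most UMIs was the same in both libraries for 3 genes, and for 4 with stricter filters or with classes weighted equally. Igf2, Igfbp3 and Igfbp6 had few UMIs, and some fitted classes had under 20 cells in a library. The cause of the changes was not tested.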

Other observations

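Some blood and pigment cell classes too small for the tests held family UMIs. Monocyte-like cells of library 1 had 217 CPM of Igfbp4 unscaled (180 to 259) and neutrophil lineage-like cells 98.8 CPM (61.9 to 150). Igfbp2 in monocyte-like cells came to 69 UMIs, 35 of them in 1 cell. In stria intermediate cell-like cells of library 2, marked by Dct and Tyr, all 12 Igf1 UMIs lay in 1 of 19 cells.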
